A study of Mus musculus with 39 samples.

Results

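Gfap and 9 further genes that are widely used to mark astrocytes were followed in RNA from CD11b+ cells of the mouse cortex, which the labels call cerebrum. The 10 genes were Gfap, Aqp4, Slc1a2, Slc1a3, Aldoc, S100b, Gja1, Sox9, Aldh1l1 and Clu, taken by symbol from the gene count tables, which list 46333 genes for females and 54532 genes for males. All 10 were found in both tables. The study asked how chronic intermittent hypoxia (CIH), a model of the oxygen swings of sleep apnea, acts on microglia in a mouse model of Alzheimer's disease. Wild-type (WT) and 5XFAD mice, which carry familial Alzheimer's disease mutations in human transgenes driven by the neuronal Thy1 promoter, were kept in CIH or in normoxia (NX). Per the labels, exposure began at 4 months of age. Oxygen in CIH alternated between 6.5% and 21% in 90 s steps for 8 hours per day, while NX mice were kept at 21%. The study's methods give another low oxygen level and other daily hours. Females were 10 months old at collection and males 8 months. Each group held 5 libraries, with 4 in female WT NX, which made 39 libraries in 8 groups. Sex and age differ together between the cohorts, whose tables were made with different annotations, so each test stayed within 1 cohort. Nothing in the labels says that libraries of 1 group came from separate animals, while the study's methods describe the samples of a group as independent. The p-values measure the spread between these libraries.

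Astrocytes are glial cells that take up glutamate, buffer water and ions, and couple to one another through gap junctions. GFAP is the intermediate filament protein of their cytoskeleton, and its rise is the usual sign of a reactive astrocyte, including those around amyloid plaques. Most microglia do not make it. The other genes cover other tasks. Slc1a2 and Slc1a3 encode the glial glutamate transporters GLT-1 and GLAST, Aqp4 the water channel aquaporin-4, and Gja1 the gap junction protein connexin 43. Aldoc encodes aldolase C of glycolysis, Aldh1l1 an enzyme of folate metabolism, S100b a calcium-binding protein, Sox9 a transcription factor of glial fate, and Clu the secreted chaperone clusterin. Reads in a bulk isolate do not say which cell they came from, and fewer astrocytes cannot be told apart from less RNA per astrocyte.

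Total counts were 14731683 to 25906121 in the 19 female libraries and 13457293 to 23095627 in the 20 male libraries. The isolate was rich in microglial RNA. The summed level of 8 microglia identity genes, such as P2ry12 and Cx3cr1, was 20470 to 33348 CPM (counts scaled to a common library size with edgeR's TMM factors) over the 39 libraries, and the summed level of the 10 astrocyte genes was 131 to 1104 CPM. Neuron markers summed to 8.63 to 49.2 CPM for 10 genes, and ependymal markers to 0.390 to 4.34 CPM for 6 genes. Before any comparison, 1 library stood apart. In the female library labelled 5XFAD NX 4, 8 genes of disease-associated microglia (DAM) summed to 1797 CPM, below every female WT library (2268 to 7759 CPM), whereas the other 9 female 5XFAD libraries lay between 20243 and 42305 CPM. The genotype folds of the 10 genes and the Gfap and S100b means in NX females are given with and without this library, and so are the counts over gene lists, an alternative chosen after seeing the data. The female library labelled WT NX 1 had the 7759 CPM, and the other 8 female WT libraries had at most 3513 CPM.

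Gfap lies on chromosome 11, 102887336 to 102900912, on the minus strand (GRCm38, from the male table). S100b lies on chromosome 10, 76253853 to 76261159, on the plus strand, and Slc1a3 on chromosome 15, 8634124 to 8710764, on the minus strand. The deposited counts do not state whether strand was used. S100b shares bases with Dip2a on the other strand, which had means of 469 and 372 counts in male WT and male 5XFAD libraries. These counts are not scaled for library size, and whether shared reads entered the S100b counts was not tested. Gfap shares bases with Gm26668 on the other strand (means of 24.2 and 25.4 counts). Slc1a3 shares bases with Gm37310 on the same strand (means of 25.1 and 20.5 counts).

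The promoters of these 3 genes are shown because Gfap and S100b had the largest differences between genotypes and Slc1a3 moved the other way. RefSeq promoter windows on GRCm38.p6 matched 7 of the 10 genes, in 8 windows, and the 250 bases before the annotated start are printed 5′ to 3′ on the gene's own strand. Capitals mark matches on either strand to the core letters of sites for PU.1, the factor of myeloid cells, which are GAGGAA, to the STAT motif TTCNNNGAA, to the AP-1 motif TGANTCA, or to the letters TATAAA of a TATA box. The matches shown do not overlap. The windows are chr11:102897201-102897450 (minus strand) for Gfap, chr10:76253586-76253835 (plus strand) for S100b and chr15:8710808-8711057 (minus strand) for Slc1a3. The start of the Gfap window lies inside the interval that the male table gives for the gene.
Gfap: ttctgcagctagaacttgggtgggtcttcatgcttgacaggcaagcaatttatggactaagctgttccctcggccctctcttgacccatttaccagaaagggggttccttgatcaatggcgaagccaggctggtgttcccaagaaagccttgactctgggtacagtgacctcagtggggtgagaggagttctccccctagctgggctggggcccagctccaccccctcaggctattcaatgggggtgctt
S100b: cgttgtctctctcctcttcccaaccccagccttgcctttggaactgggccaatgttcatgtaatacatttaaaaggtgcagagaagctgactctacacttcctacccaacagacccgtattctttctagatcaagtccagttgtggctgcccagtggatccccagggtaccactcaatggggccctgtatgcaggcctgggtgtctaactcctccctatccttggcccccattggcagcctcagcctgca
Slc1a3: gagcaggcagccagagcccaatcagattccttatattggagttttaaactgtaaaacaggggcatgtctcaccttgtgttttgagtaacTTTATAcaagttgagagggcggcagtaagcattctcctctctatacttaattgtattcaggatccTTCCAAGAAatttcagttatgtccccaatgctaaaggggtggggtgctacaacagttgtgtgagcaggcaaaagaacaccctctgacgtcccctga
The Gfap and S100b windows held none of the 4 motifs. The Slc1a3 window held 1 match to TTCNNNGAA and 1 to TATAAA. Among 32851 mouse windows of this length, 23.3% held GAGGAA, 7.02% TTCNNNGAA, 6.75% TGANTCA and 12.4% TATAAA.

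Gfap was nearly absent from WT libraries and abundant in 5XFAD libraries. In females, the 4 WT NX libraries held 12, 26, 11 and 7 Gfap reads and the 5 WT CIH libraries 5, 7, 20, 5 and 26. The 5 5XFAD NX libraries held 1791, 2852, 2755, 31 and 2610 reads, and the 5 5XFAD CIH libraries 1485, 7826, 4607, 2768 and 3503. In males, the 5 WT NX libraries held 12, 0, 4, 8 and 10 reads and the 5 WT CIH libraries 2, 11, 6, 17 and 30. The 5 male 5XFAD NX libraries held 3737, 9686, 6776, 2886 and 3345 reads, and the 5 5XFAD CIH libraries 1315, 4244, 2908, 8048 and 6000. The WT and 5XFAD counts did not overlap in either cohort, and the one 5XFAD library near the WT range was the female library labelled 5XFAD NX 4. In the male WT NX library with 0 reads, the count allows a level of up to 0.177 CPM (3 counts, counting error only).

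In CPM, Gfap averaged 0.737 ± 0.539 (SD, n = 4) in female WT NX, 0.688 ± 0.513 (SD, n = 5) in WT CIH, 129 ± 79.9 (SD, n = 5) in 5XFAD NX and 239 ± 117 (SD, n = 5) in 5XFAD CIH. The male means were 0.378 ± 0.277, 0.741 ± 0.621, 384 ± 238 and 285 ± 131 (SD, n = 5 each) in the same order. The spread within the 5XFAD groups was wide, from 93.9 to 410 CPM among females without the library labelled 5XFAD NX 4 and from 101 to 738 CPM among males. Without that library the female 5XFAD NX mean was 160 ± 42.3 CPM (SD, n = 4).

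**Figure D1:**
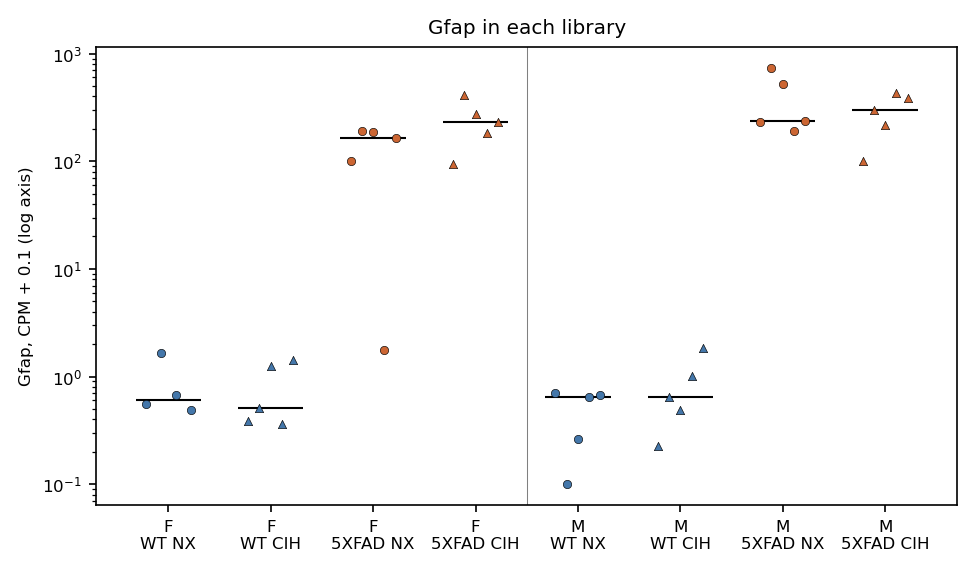
Gfap in each of the 39 libraries as CPM plus 0.1 on a log axis (points: libraries; bars: group medians; blue: WT; orange: 5XFAD; circles: NX; triangles: CIH). All WT libraries lay at or below 1.73 CPM and all 5XFAD libraries at or above 93.9 CPM, except the female library labelled 5XFAD NX 4 at 1.66 CPM.

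Per gene length, Gfap went from last of the 10 genes to first. In the deposited FPKM of male WT NX, Slc1a3 was highest at 15.5 ± 1.52 (SD, n = 5), followed by Clu at 11.3 ± 3.12 and Aldoc at 1.48 ± 1.25. Below these lay Aldh1l1 (0.679 ± 0.350 FPKM), Slc1a2 (0.638 ± 0.472 FPKM), S100b (0.469 ± 0.223 FPKM), Gja1 (0.300 ± 0.242 FPKM), Aqp4 (0.214 ± 0.150 FPKM) and Sox9 (0.168 ± 0.133 FPKM), each within 1 SD of its neighbours. Gfap was lowest, at 0.0885 ± 0.0650 FPKM. In male 5XFAD NX, Gfap was highest at 90.2 ± 55.8 FPKM, which placed it at rank 515 of 54532 genes by mean FPKM, from rank 20094 in WT NX. Clu (13.0 ± 5.54 FPKM), S100b (12.2 ± 7.72 FPKM), Slc1a3 (10.2 ± 2.04 FPKM), Aldoc (7.55 ± 4.28 FPKM) and Slc1a2 (5.04 ± 2.08 FPKM) followed, with overlapping SDs from one to the next. The remaining 4 genes stayed at or below 0.969 FPKM in the mean.

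The female table gave the same top and bottom. In female WT NX, Slc1a3 was highest at 31.4 ± 2.41 FPKM and Clu next at 15.6 ± 7.76 FPKM, and Gfap was lowest at 0.177 ± 0.128 FPKM (SD, n = 4). In female 5XFAD CIH, Gfap was highest at 52.6 ± 26.0 FPKM, rank 1171 of 46333, and Slc1a3 next at 19.0 ± 1.90 FPKM (SD, n = 5). In female 5XFAD NX, Gfap had a mean of 26.5 ± 16.8 FPKM and Slc1a3 of 20.02 ± 3.74 FPKM, which overlapped. They were 33.1 ± 9.55 and 18.5 ± 1.58 FPKM (SD, n = 4) without the library labelled 5XFAD NX 4.

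The question put by the comparison of 5XFAD with WT is whether the astrocyte genes differ with the genotype. Differentially expressed genes were those with an FDR below 0.05 and an absolute log2 fold change (log2FC) above 1 in edgeR's quasi-likelihood test, and "called" means this below. In NX females, 1 of the 10 genes was called higher in 5XFAD, where 5.99% of all genes tested were called, 4.4% higher and 1.59% lower. Without the library labelled 5XFAD NX 4, 2 were called higher and 1 lower, against 7.16% of all genes higher and 6.13% lower, and the median log2FC over the 10 was 0.50. In CIH females, 5 were called higher, against 13% of all genes called, 8.83% higher and 4.12% lower. In NX males, 4 were called higher, against 8.25% called, 5.94% higher and 2.31% lower. In CIH males, 2 were called higher and Gja1 lower, against 18.7% called, 11.8% higher and 6.88% lower. The median log2FC over the 10 genes was 0.38 and 1.11 in NX and CIH females and 1.27 and 0.39 in NX and CIH males, beside −0.02, −0.02, 0.02 and −0.06 over all genes tested. Scaling by library size in place of TMM shifted the median of all genes by −0.15, −0.19, −0.19 and −0.37 in these 4 comparisons, and gene values are read relative to that.

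Gfap was higher in 5XFAD in all 4 comparisons. Its log2FC was 7.48 (SE 1.21, FDR 0.0162) in NX females, 8.41 (SE 0.48, FDR 1.65e-08) in CIH females, 10.01 (SE 0.62, FDR 3.73e-07) in NX males and 8.58 (SE 0.50, FDR 9.78e-09) in CIH males. By log2FC it ranked 4 of 14513, 4 of 14911, 1 of 14834 and 5 of 14793 genes tested. In NX females the value was 7.81 (FDR 1.70e-06) without the library labelled 5XFAD NX 4. The call in NX females was lost without WT NX 3 (log2FC 7.39, FDR 0.0635) or WT NX 4 (7.29, FDR 0.0515). It was also lost with the replicate number as a block (7.19, adjusted p 0.0569). That fit called 7 of all genes, against 869 without the block.

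S100b, the calcium-binding protein, came closest to Gfap. It averaged 1.18 ± 1.09 (SD, n = 4) and 0.584 ± 0.478 CPM (SD, n = 5) in female WT NX and WT CIH, and 7.04 ± 4.38 and 13.5 ± 7.17 CPM (SD, n = 5 each) in 5XFAD NX and 5XFAD CIH. The male means were 0.700 ± 0.327 and 0.697 ± 0.487 CPM in WT NX and WT CIH, and 18.3 ± 11.5 and 14.2 ± 7.72 CPM in 5XFAD (SD, n = 5 each). All 5XFAD libraries lay above all WT libraries in males and in CIH females. In NX females the library labelled 5XFAD NX 4, at 0.374 CPM, lay among the WT libraries (0.279 to 2.72 CPM), and the mean of the other 4 was 8.71 ± 2.65 CPM (SD, n = 4). S100b rose by log2FC 4.51 (SE 0.51, FDR 7.82e-06) in CIH females, 4.70 (SE 0.47, FDR 2.10e-05) in NX males and 4.36 (SE 0.49, FDR 5.47e-06) in CIH males. In NX females the log2FC was 2.60 (SE 0.85, FDR 0.0655), and 2.91 (FDR 0.00221) without the library labelled 5XFAD NX 4. With all libraries it was called there by DESeq2 (2.61, adjusted p 0.00658), by edgeR's likelihood ratio test (2.58, adjusted p 0.0187), without the filter on low counts (2.63, adjusted p 0.0451) and in 1 fit over the 4 groups (2.61, adjusted p 0.0135).

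The glutamate transporter genes went in opposite directions. Slc1a2 averaged 8.46 ± 6.30 CPM in male WT NX and 66.6 ± 27.4 CPM in male 5XFAD NX (SD, n = 5 each), with no overlap. Its log2FC was 3.00 (SE 0.52, FDR 0.00149) in NX males and 2.56 (SE 0.55, FDR 0.00167) in CIH females, where the means were 9.44 ± 7.40 and 56.6 ± 29.2 CPM and 1 5XFAD library (14.3 CPM) lay within the WT range. It was not called in CIH males (log2FC 1.10, SE 0.44, FDR 0.0524) or NX females (0.56, SE 0.52, FDR 0.472, and 0.79, FDR 0.165, without the library labelled 5XFAD NX 4). In CIH males it passed without 5XFAD CIH 1 (1.35, FDR 0.00831) or WT CIH 4 (1.34, FDR 0.0344). With all libraries it passed by the likelihood ratio test (1.10, adjusted p 0.0289) and without the filter on low counts (1.09, adjusted p 1.06e-13). The fit without the filter tested 37228 genes, against 14793 with it, on the same libraries. Its far lower adjusted p came at nearly the same log2FC and is no separate support.

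Slc1a3 was the most abundant of the 10 genes in WT libraries and was lower in 5XFAD. In males, the WT NX libraries lay between 118 and 146 CPM and the 5XFAD NX libraries between 67.5 and 107 CPM. The male WT CIH libraries lay between 131 and 168 CPM and the 5XFAD CIH libraries between 69.6 and 123 CPM. In females, all 9 WT libraries (147 to 171 CPM) lay above all 10 5XFAD libraries (91.9 to 118 CPM), including the library labelled 5XFAD NX 4 at 106 CPM. The log2FC was −0.51 (SE 0.08, FDR 0.0162) in NX females, or −0.55 (FDR 0.000356) without that library, −0.60 (SE 0.06, FDR 2.95e-06) in CIH females, −0.60 (SE 0.14, FDR 0.00929) in NX males and −0.68 (SE 0.14, FDR 0.00122) in CIH males. Each passed the FDR limit and none the limit on the fold, apart from CIH males when scaled by library size (−1.04). By FDR alone, 6.61%, 25.7%, 7.37% and 23.7% of all genes were lower in these comparisons, and the groups did not overlap for 14.8%, 36.9%, 16% and 36.2% of genes. Slc1a3 was the one gene of the 10 that was lower past the FDR limit in all 4 comparisons.

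**Figure D2:**
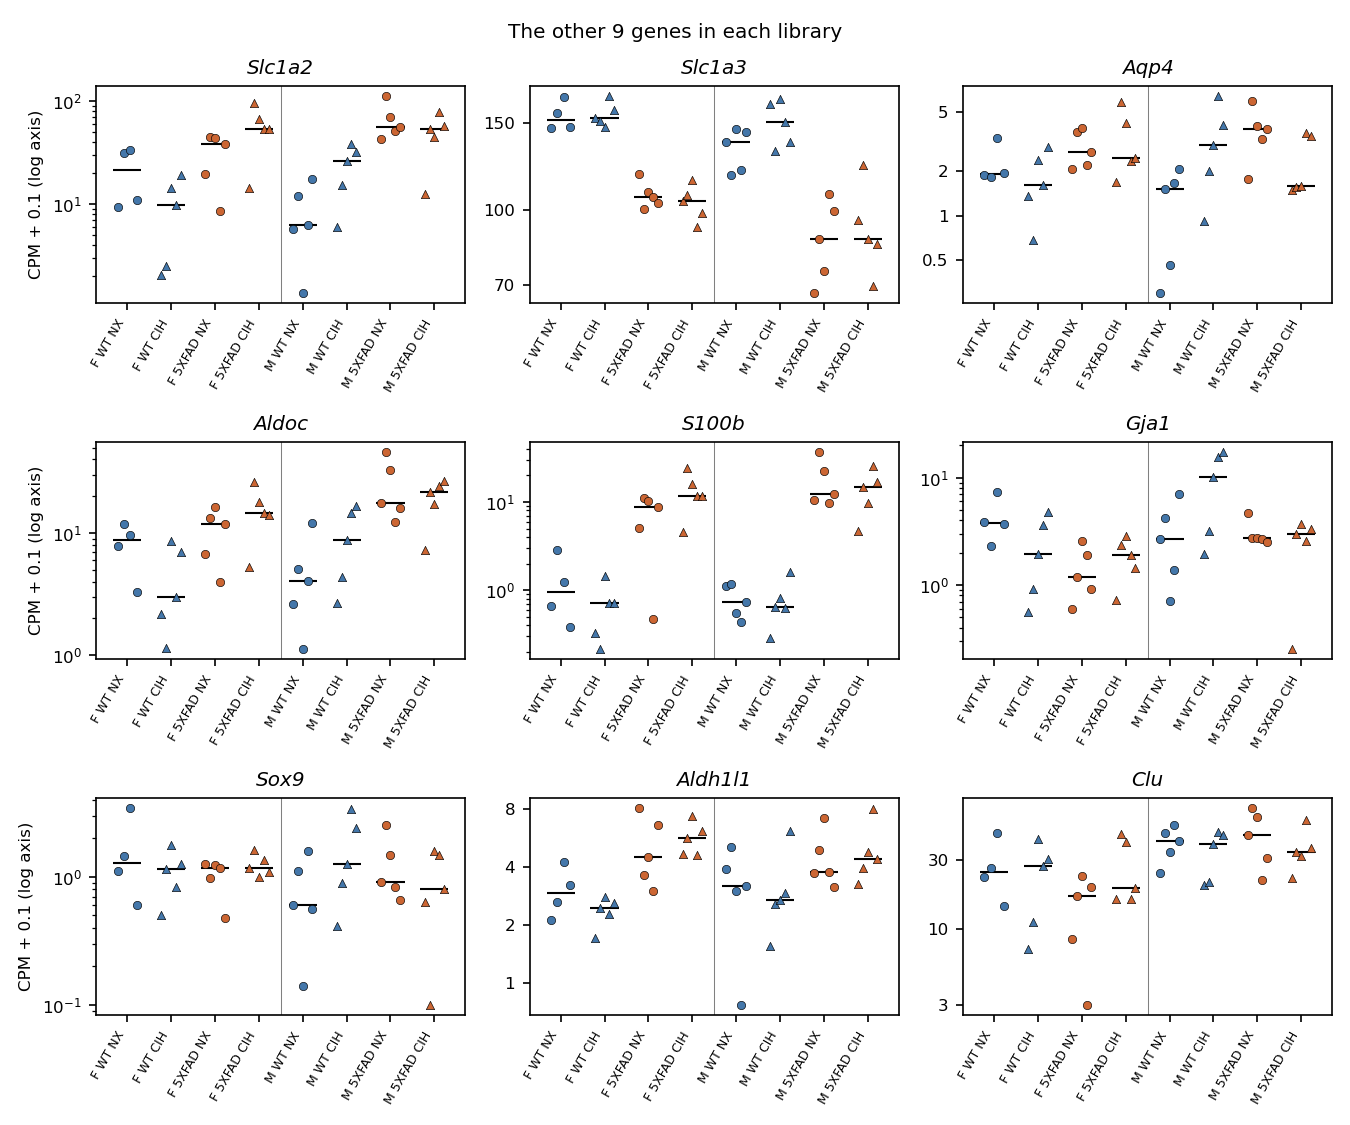
The other 9 genes in each library as CPM plus 0.1 on log axes (points: libraries; bars: group medians; blue: WT; orange: 5XFAD; circles: NX; triangles: CIH; females left and males right of the grey line). S100b, Slc1a2 and Aldoc lay higher in most 5XFAD libraries, Slc1a3 lay lower in all of them than in WT of the same cohort and treatment, and Aqp4, Gja1, Sox9, Aldh1l1 and Clu overlapped between most groups.

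Aldoc and Aldh1l1, the enzymes, rose in part of the comparisons. Aldoc had a log2FC of 1.84 (SE 0.49, FDR 0.00645) in CIH females, from 4.27 ± 3.22 to 15.5 ± 7.56 CPM (SD, n = 5 each), and of 2.37 (SE 0.55, FDR 0.00993) in NX males, from 4.87 ± 4.18 to 24.8 ± 14.1 CPM (SD, n = 5 each). The libraries of NX males did not overlap, and those of CIH females did. Aldoc was not called in CIH males (log2FC 1.09, SE 0.43, FDR 0.0507), where it passed without 5XFAD CIH 1 (1.30, FDR 0.0166), WT CIH 4 (1.29, FDR 0.0384) or WT CIH 5 (1.41, FDR 0.019). With all libraries it passed by the likelihood ratio test (1.09, adjusted p 0.0290). It also passed without the filter on low counts (1.08, adjusted p 1.98e-08), with the limit on that fit given above. It was not called in NX females (0.37, SE 0.43, FDR 0.568), also not without the library labelled 5XFAD NX 4 (0.56, FDR 0.246). Aldh1l1 rose in CIH females by log2FC 1.29 (SE 0.19, FDR 8.97e-05), from 1.60 to 2.68 CPM across WT CIH libraries to 4.50 to 7.19 CPM across 5XFAD CIH libraries, with no overlap. Its log2FC in the other comparisons was 0.78 (FDR 0.122) in NX females, 0.52 (FDR 0.482) in NX males and 0.67 (FDR 0.14) in CIH males. In CIH males it passed without WT CIH 5 (1.07, FDR 0.016). In NX females it was at 0.90 (FDR 0.0372) without the library labelled 5XFAD NX 4, past the FDR limit and below the limit on the fold.

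Of the membrane channel genes, Gja1 was called lower in CIH males, and other tests also called Gja1 lower in NX females and Aqp4 higher in NX males. Gja1 was lower in 5XFAD in CIH males, at log2FC −1.92 (SE 0.62, FDR 0.0188), with libraries at 1.83, 3.11, 10.0, 15.5 and 17.3 CPM in WT CIH and at 0.154, 2.86, 3.57, 2.44 and 3.21 CPM in 5XFAD CIH. The groups overlapped, and the 3 highest WT libraries set them apart. This call was lost without WT CIH 4 (−1.69, FDR 0.0516) or WT CIH 5 (−1.59, FDR 0.0573). In NX females Gja1 had a log2FC of −1.61 (SE 0.50, FDR 0.0561), and −1.81 (FDR 0.0162) without the library labelled 5XFAD NX 4. With all libraries it was called there by DESeq2 (−1.59, adjusted p 0.0125), by edgeR's likelihood ratio test (−1.60, adjusted p 0.0154) and in 1 fit over the 4 groups (−1.61, adjusted p 0.0439). In CIH females and NX males it was −0.37 (FDR 0.592) and −0.05 (FDR 0.971). By the quasi-likelihood test Aqp4 was not called in any of the 4 comparisons, with log2FC 0.40 and 0.92 (FDR 0.371 and 0.0772) in NX and CIH females and 1.75 and −0.47 (FDR 0.0546 and 0.427) in NX and CIH males. It passed in CIH females without 5XFAD CIH 1 (1.09, FDR 0.0411) or WT CIH 5 (1.18, FDR 0.037), and in NX males without 5XFAD NX 1 (1.94, FDR 0.0413) or WT NX 5 (2.07, FDR 0.046). In NX males it was also called by DESeq2 (1.77, adjusted p 0.0122), by edgeR's likelihood ratio test (1.75, adjusted p 0.0166) and in 1 fit over the 4 groups (1.76, adjusted p 0.0260). In NX females without the library labelled 5XFAD NX 4 it was at 0.45 (FDR 0.263).

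Sox9 and Clu were not called between genotypes. Sox9 was at 0 to 65 reads per library, and its log2FC ran from −0.89 (SE 0.72, FDR 0.322) in CIH males to 0.78 (SE 0.74, FDR 0.548) in NX males. Clu averaged 14.1 to 45.0 CPM over the 8 groups, and its log2FC ran from −0.96 (SE 0.50, FDR 0.204) in NX females to 0.21 (SE 0.43, FDR 0.703) in CIH females. In NX females without the library labelled 5XFAD NX 4, Sox9 was at −0.81 (FDR 0.266) and Clu at −0.71 (FDR 0.144).

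**Figure D3:**
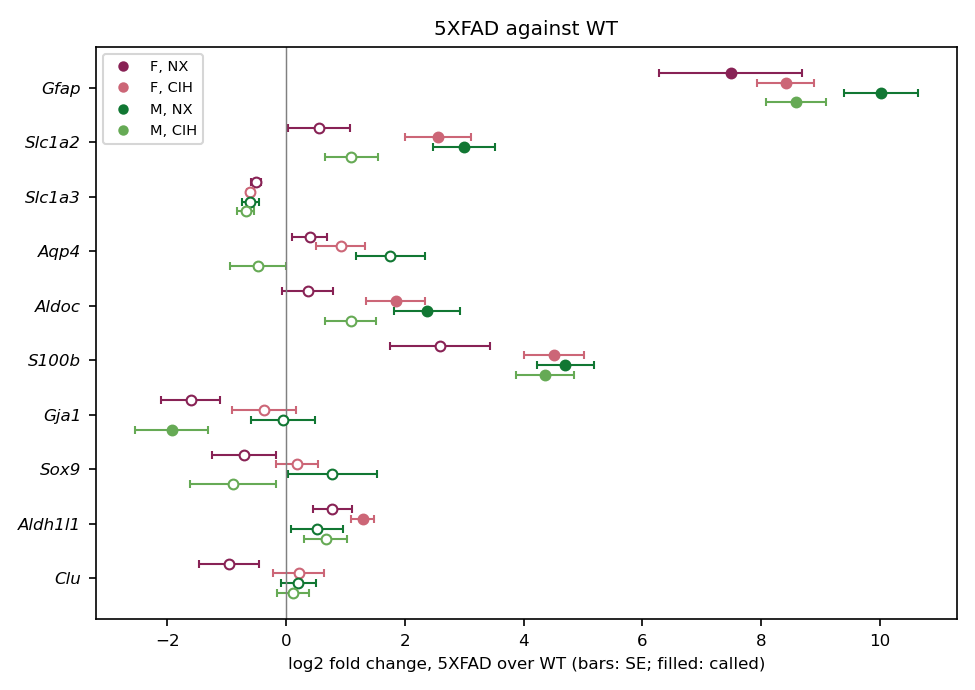
The log2FC of 5XFAD over WT for the 10 genes in NX and CIH females and males (points: log2FC; bars: SE; filled points: called). Gfap lies between 7.48 and 10.01, S100b between 2.60 and 4.70, and Slc1a3 between −0.68 and −0.51.

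Whether CIH changes these genes was asked within each genotype. In WT females, 0 of the 10 genes were called by edgeR's quasi-likelihood test, by its likelihood ratio test or by DESeq2. The quasi-likelihood test called 0% of all genes there. In that test 0 of the 10 had an unadjusted p below 0.05, against 3.87% of all genes. In 5XFAD females the same held, with 0 called by each tool, against 0% of all genes by the quasi-likelihood test. Again 0 of the 10 had an unadjusted p below 0.05, against 3.22% of all genes. Gfap had a log2FC of −0.02 (SE 0.61, FDR 0.997) in WT females and of 0.92 (SE 0.75, FDR 0.998) in 5XFAD females, or 0.61 (FDR 0.687) without the library labelled 5XFAD NX 4. Of the 10 genes, 1 had a positive log2FC in WT females (Slc1a3, 0.04) and 9 in 5XFAD females, where Slc1a3 was at −0.05.

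In WT males, Slc1a2 was higher in CIH, and 1 of the 9 genes tested was called against 2.51% of all genes, 1.63% higher. Slc1a2 was at 5.58, 11.8, 1.27, 6.13 and 17.5 CPM in the NX libraries and at 5.94, 15.1, 26.2, 37.9 and 31.6 CPM in the CIH libraries, which overlapped. Its log2FC was 1.47 (SE 0.52, FDR 0.0434). The call was lost without any 1 of WT CIH 3 (1.43, FDR 0.0807), WT CIH 4 (1.23, FDR 0.115), WT CIH 5 (1.33, FDR 0.0874), WT NX 1 (1.36, FDR 0.0806), WT NX 3 (1.18, FDR 0.0626) or WT NX 4 (1.38, FDR 0.0933), under DESeq2 (1.48, adjusted p 0.0763) and in 1 fit over the 4 groups (1.47, adjusted p 0.0900). Gja1 (log2FC 1.62, SE 0.61, FDR 0.0574) and Aqp4 (1.54, SE 0.60, FDR 0.0664) missed the limit. Gja1 passed without WT CIH 1 (1.89, FDR 0.0193), WT CIH 2 (1.85, FDR 0.0375) or WT NX 5 (2.14, FDR 0.0256), Aqp4 without WT CIH 1 (1.79, FDR 0.0283), and Aldoc (0.94, SE 0.54, FDR 0.214) without WT NX 5 (1.57, FDR 0.0419). Gja1 was also called by the likelihood ratio test (1.62, adjusted p 0.0301), with library size scaling (1.74, adjusted p 0.0465) and without the filter on low counts (1.65, adjusted p 8.04e-09). Aqp4 was also called by DESeq2 (1.56, adjusted p 0.0275), by the likelihood ratio test (1.53, adjusted p 0.0402) and without the filter on low counts (1.58, adjusted p 0.00688). For both genes the fit without the filter has the limit given above. Gfap fell below that filter here. Its mean log2 CPM was −0.70 in CIH and −1.63 in NX, and the difference of 0.93 was within the spread (two-sided exact permutation test, p = 0.341, n = 5 per group, smallest possible p 0.00794).

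In 5XFAD males, 0 of the 10 genes were called by any of the 3 tests, against 0% of all genes by the quasi-likelihood test. In that test 0 of the 10 had an unadjusted p below 0.05, against 3.30% of all genes. Gfap had a log2FC of −0.44 (SE 0.42, FDR 0.995) and S100b of −0.37 (SE 0.45, FDR 0.995). The interaction of genotype and treatment was called for 0 of the 10 genes in both cohorts by edgeR's quasi-likelihood test, by its likelihood ratio test and by DESeq2. The quasi-likelihood test called it for 0% of all genes. At an unadjusted p below 0.05 there was 1 gene in females, Slc1a2 (interaction of 1.99 on the log2 scale, SE 0.85, FDR 0.952), and 3 in males, Aqp4 (−2.24, SE 0.77, FDR 0.124), Slc1a2 (−1.91, SE 0.73, FDR 0.136) and Gja1 (−1.89, SE 0.89, FDR 0.197). Of all genes, 3.78% in females and 24.4% in males had an unadjusted interaction p below 0.05. For Gfap it was 0.90 (SE 1.48, FDR 0.957) in females and −1.44 (SE 0.91, FDR 0.323) in males. The fit without the filter on low counts called 5 of the 10 genes in the male interaction, Gfap among them (−1.44, adjusted p 0.0216), and 2.06% of all genes tested.

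**Figure D4:**
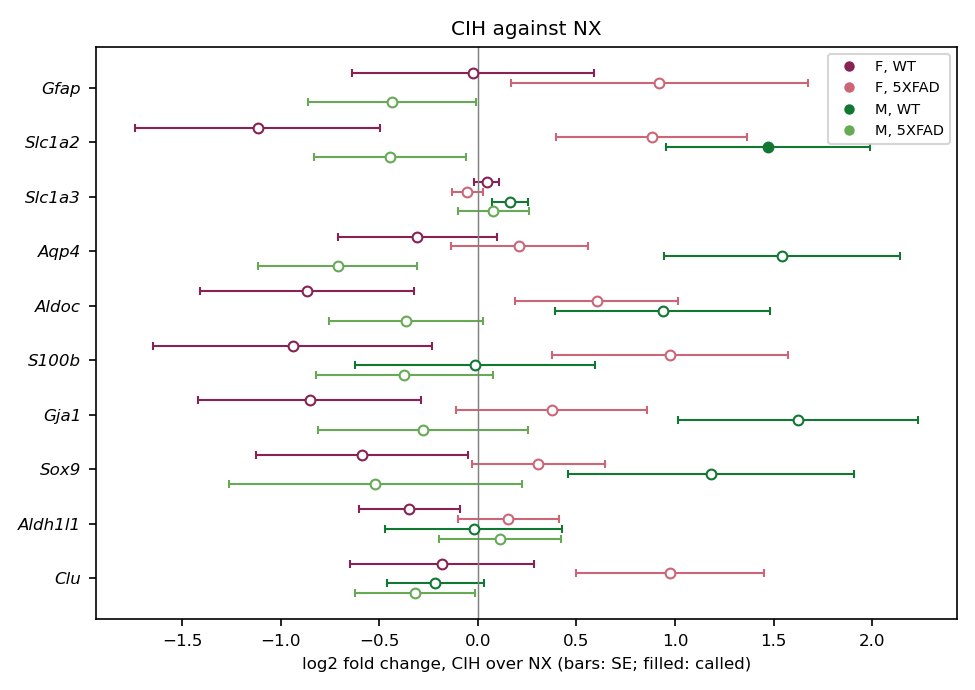
The log2FC of CIH over NX for the 10 genes in WT and 5XFAD females and males (points: log2FC; bars: SE; filled point: called). Only Slc1a2 in WT males is filled, at 1.47, and Gfap in WT males is missing because it was below the filter.

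Whether Gfap follows the other genes was asked library by library, on log2 CPM after the mean of each group was taken off, so that the genotype difference itself does not enter. The test was a two-sided permutation of libraries within groups (100000 draws), adjusted over 18 relations, 9 in each cohort. In the 19 female libraries, Gfap went with S100b (r = 0.889, rho = 0.814, adjusted p 0.00114 and 0.00198), Clu (r = 0.762, rho = 0.698, adjusted p 0.00639 and 0.00945), Slc1a2 (r = 0.695, rho = 0.747, adjusted p 0.00114 and 0.00117) and Aldoc (r = 0.688, rho = 0.782, adjusted p 0.0009 and 0.00054). Aqp4 was at the limit (r = 0.435, rho = 0.491, adjusted p 0.0495 and 0.0609). Slc1a3 had r = 0.02 and rho = −0.01 (adjusted p 0.945 and 0.974), and its r was −0.592 (adjusted p 0.233) when scaled by library size. Gja1, Sox9 and Aldh1l1 had r of 0.03, 0.08 and 0.486 (adjusted p 0.945, 0.828 and 0.233), or 0.425, 0.392 and 0.149 (adjusted p 0.241, 0.242 and 0.584) without the library labelled 5XFAD NX 4. Without the 2 libraries farthest from the median of Gfap, r was 0.796 for S100b, 0.656 for Clu, 0.795 for Slc1a2, 0.837 for Aldoc and 0.631 for Aqp4. Without the library labelled 5XFAD NX 4 alone, Clu no longer passed (r = 0.655, rho = 0.643, adjusted p 0.0506 and 0.0508).

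In the 20 male libraries, S100b had r = 0.550 and rho = 0.608 (adjusted p 0.0495 and 0.0315). Its r no longer passed at a prior count of 0.25 (0.390, adjusted p 0.268) or by library size (0.535, adjusted p 0.0801). Aldoc had r = 0.606 and rho = 0.681 (adjusted p 0.0506 and 0.0153), Slc1a2 r = 0.502 and rho = 0.540 (adjusted p 0.132 and 0.0609), and Clu r = 0.479 and rho = 0.543 (adjusted p 0.0902 and 0.059). Slc1a3 had r = −0.173 and rho = −0.268 (adjusted p 0.558 and 0.305). Without the 2 libraries farthest from the median of Gfap, r was 0.832 for S100b, 0.816 for Aldoc, 0.772 for Slc1a2 and 0.656 for Clu.

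Since Gfap is at a few reads in WT libraries, the relations were also taken in 5XFAD libraries alone, an alternative chosen after seeing the data. In the 9 female libraries without the one labelled 5XFAD NX 4, exact permutation within groups gave r = 0.989 for S100b, 0.973 for Aldoc, 0.971 for Slc1a2, 0.930 for Aqp4, 0.831 for Clu and 0.787 for Gja1 (adjusted p 0.00188, 0.00446, 0.00313, 0.0025, 0.00625 and 0.0262). In the 10 male libraries r was 0.986 for Aldoc, 0.984 for S100b, 0.905 for Slc1a2, 0.881 for Clu, 0.736 for Aqp4 and 0.734 for Aldh1l1 (exact permutation, adjusted p 0.00188, 0.00125, 0.00188, 0.00722, 0.039 and 0.046). Slc1a3 had r = 0.00119 in females and −0.316 in males, and Sox9 0.03 and 0.275. The rank correlations in the same order of genes were 0.983, 0.883, 0.933, 0.967, 0.867 and 0.767 in females and 0.939, 1, 0.939, 0.867, 0.806 and 0.794 in males.

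The ratio of reads needs no scaling between libraries. Across the 9 female 5XFAD libraries other than the one labelled 5XFAD NX 4, there were 15.8 to 20.9 Gfap reads per S100b read, and across the 10 male 5XFAD libraries 17.0 to 23.3, while Gfap itself varied from 1485 to 7826 and from 1315 to 9686 reads. Per Aldoc read the ranges were 11.5 to 18.3 and 12.6 to 17.6. Per Slc1a3 read they were wider, from 0.844 to 3.84 in females and from 1.06 to 8.50 in males. In WT libraries the ratio was another one, at 0.417 to 3.5 Gfap reads per S100b read in females and 0 to 1.70 in males, and at 0.0585 to 0.389 and 0 to 0.240 per Aldoc read. The library labelled 5XFAD NX 4 had 4.43 Gfap reads per S100b read, on 31 and 7 reads, and 0.425 per Aldoc read. For S100b and Aldoc the ranges of the genotypes did not overlap in either cohort, with or without that library.

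**Figure D5:**
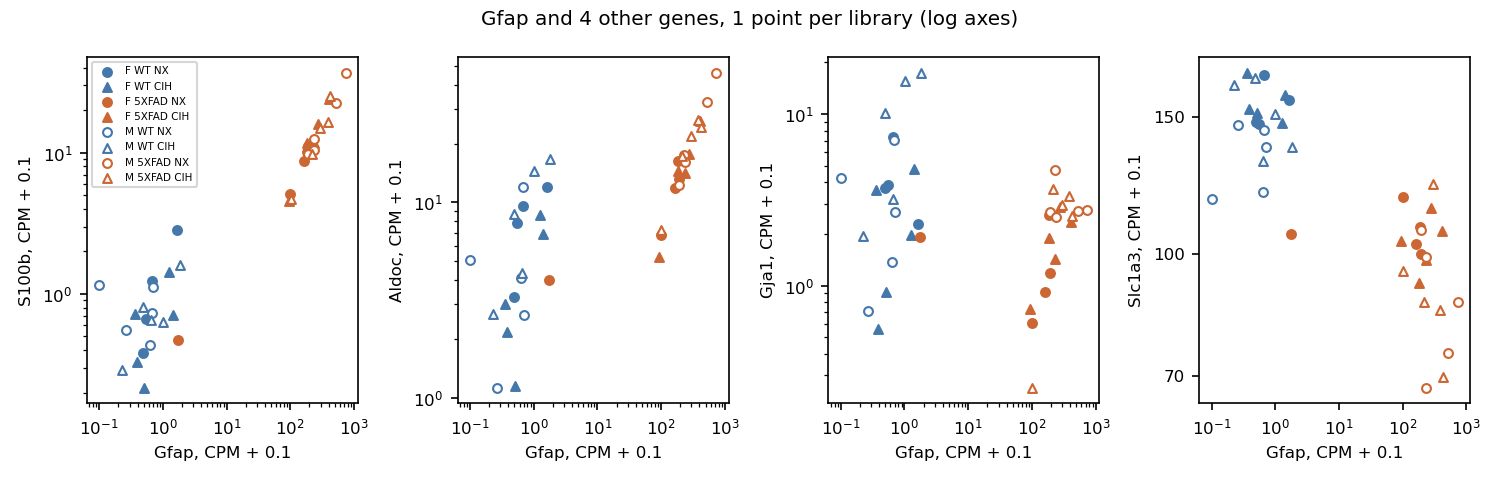
Gfap against S100b, Aldoc, Gja1 and Slc1a3, with 1 point per library in CPM plus 0.1 on log axes (blue: WT; orange: 5XFAD; circles: NX; triangles: CIH; filled: females; open: males). Among 5XFAD libraries other than the female one labelled 5XFAD NX 4, S100b and Aldoc rise with Gfap along a line. The WT libraries lie at 1.73 CPM of Gfap or below over a range of Aldoc from 1.02 to 16.5 CPM. The library labelled 5XFAD NX 4 lies among them, at 1.66 CPM of Gfap and 3.90 CPM of Aldoc.

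The genes with a pattern most like Gfap, by the same group-centred r and as a description, were 2900052N01Rik, Asap1, Cdc42bpa, Acaca and Inppl1 over the 19 female libraries (r from 0.924 to 0.953, of 15581 genes), with S100b at rank 34. Without the library labelled 5XFAD NX 4 they were Shc3, 2900052N01Rik, Cpe, Gpm6b and Fbxo2, with Aldoc at rank 14, S100b at rank 29 and Slc1a2 at rank 30. Over the 20 male libraries they were Dkk3, Gap43, Gm10251, Gstt1 and Gm5611 (r from 0.842 to 0.917), with Aldoc at rank 296. Among 5XFAD libraries alone they were Cpe, S100b, Kif5a, Jun and Scd1 over the 9 female libraries other than 5XFAD NX 4, and Ndrg2, Mtss1l, Aldoc, S100b and Plekhb1 over the 10 male ones. Slc1a3 ranked 8315 and 10832 there. Values of 1 library share its depth and makeup, so these r values carry no p.

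A wider list held 20 astrocyte markers outside the 10 genes. In NX females 1 of the 19 tested was higher and 2 were lower in 5XFAD, in CIH females 3 were higher, in NX males 3 were higher, and in CIH males 3 of 20 were higher and 4 lower, beside the shares of all genes given above. The median log2FC of the list was −0.97, 0.20, 0.37 and −0.90 in that order. In NX females without the library labelled 5XFAD NX 4, 2 of 18 were higher and 6 lower, beside 7.16% and 6.13% of all genes. Ppp1r3c, a regulator of glycogen, was called in all 4 comparisons (log2FC 3.75, 4.56, 4.09 and 3.29), and Fam107a, an actin-binding stress gene, in CIH females (2.81), NX males (2.92) and CIH males (2.14). Mlc1, a membrane protein of astrocyte end feet, was called in CIH females (1.81) and NX males (3.10). Those called lower were Htra1 (−1.85) and Gpr37l1 (−1.94) in NX females and, in CIH males, 4 genes led by Agt (−1.61) and Slc4a4 (−1.54). Glul made up most of the summed level of the list. Without it the sum was 54.6 to 117 CPM in female WT NX, 12.9 to 89.0 in WT CIH, 39.6 to 73.0 in 5XFAD NX and 37.9 to 123 in 5XFAD CIH. In males it was 28.5 to 135, 37.1 to 205, 77.3 to 184 and 38.2 to 127 CPM, and the groups overlapped in both cohorts. In WT males 2 of the 20 were higher in CIH (Slc4a4, 1.96, and Hepacam, 1.17), beside 1.63% of all genes, and 19 of the 20 had a positive log2FC. In the other treatment comparisons and both interactions none of this list was called.

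Of 14 genes named for reactive astrocytes, those tested and called higher in 5XFAD were 1 of 10 in NX females, 3 of 8 in CIH females, 2 of 10 in NX males and 5 of 9 in CIH males, and none was lower. The shares of all genes called higher there were 4.4%, 8.83%, 5.94% and 11.8%. In NX females the count was 1 of 8 without the library labelled 5XFAD NX 4. Serpina3n, a protease inhibitor, rose in all 4 comparisons (log2FC 3.97, 4.70, 5.15 and 2.87), and Nes, another intermediate filament gene, in CIH females (1.65), NX males (1.81) and CIH males (1.87). Vim, the usual filament partner of GFAP, was called in CIH males only (1.00). Of 8 intermediate filament and partner genes, 0 of 5, 2 of 6, 2 of 6 and 4 of 6 tested were higher in the same order (also 0 of 5 in NX females without that library). Nes and Lmna, of the nuclear lamina, were called in each of the last 3 (Lmna 1.24, 1.32 and 2.05). This list shares Vim and Nes with the reactive list, so the counts of the lists are not separate. Its sum was 315 CPM in the female library WT NX 1 and 40.2 to 65.8 CPM in the other female WT NX libraries. In WT males, Lcn2 (−1.87) and Cxcl10 (−1.21) of the reactive list were lower in CIH. In the other treatment comparisons and both interactions none of either list was called.

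Markers of other cell types moved with the genotype too, and their part in the results above was not tested. Of 8 oligodendrocyte markers, 1 was higher in CIH females (Mbp, log2FC 1.33), 3 in NX males (led by Mobp and Mbp at 2.66 and 1.57), 2 in CIH males (Mobp and Mbp at 1.68 and 1.37) and 0 in NX females, beside 4.4% to 11.8% of all genes called higher. The log2FC was positive for 2 of 7 tested in NX females, 6 of 7 in CIH females, 7 of 8 in NX males and 5 of 8 in CIH males, with medians of −0.54, 0.68, 1.07 and 0.17. By FDR alone, Mag was lower in NX females (−0.80, FDR 0.0177) and CIH females (−0.51, FDR 0.0139). Their summed level was 218 to 364 and 140 to 306 CPM in female WT NX and WT CIH, and 148 to 340 and 214 to 455 CPM in 5XFAD NX and 5XFAD CIH. The male sums were 186 to 342, 199 to 286, 279 to 592 and 244 to 461 CPM in the same order. In WT males under CIH, 2 oligodendrocyte markers were higher, led by Ermn (1.57). Of 10 neuron markers, Snap25 was lower in CIH females (−1.13) and NX males (−1.77). The log2FC of the neuron list was positive for 2 of 5, 2 of 7, 3 of 8 and 5 of 8 genes tested, with medians of −0.50, −0.17, −0.32 and 0.06 in the same order of comparisons, and Camk2a was higher in NX males by FDR alone (0.68, FDR 0.043). Of 8 endothelial markers, Pecam1 was lower in all 4 genotype comparisons (−1.22 to −1.79), and their summed level was 26.1 to 189 CPM over all libraries. The other endothelial markers were not called. The log2FC was positive for 1, 1, 6 and 1 of the 8, with medians of −1.17, −0.57, 0.27 and −0.46, and Kdr was higher in CIH females by FDR alone (0.55, FDR 0.00149). Mag, Camk2a and Kdr were named after their values were seen. No ependymal marker was called, with 1 of 6 or none tested per comparison. Of the 8 microglia identity genes, 1, 2, 2 and 2 were called lower in 5XFAD in NX females, CIH females, NX males and CIH males, and of the 8 DAM genes 6, 8, 8 and 8 were called higher. Without the library labelled 5XFAD NX 4, the counts in NX females were 2 lower for the identity genes and 6 higher for the DAM genes, Pecam1 was at −1.95, Syn1 of the neuron list was lower (−1.52), with a median of −1.31 over the 4 tested there, and 0 oligodendrocyte markers were called. In the treatment comparisons no gene of the neuron, endothelial, ependymal, microglia identity or DAM lists was called. By FDR alone, 3 of the 8 identity genes and 4 of the 8 DAM genes were lower in WT males under CIH. In that comparison 39.8% of all genes had an unadjusted p below 0.05. In 5XFAD males, 0 of the 8 endothelial markers had a positive log2FC of CIH over NX (median −1.34), and none was called (FDR 0.995 each). Their sum was 26.1 to 76.8 CPM in CIH and 81.8 to 176 CPM in NX, and the difference in the sum was not tested.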

How the data were processed

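CD11b+ cells were isolated from cortex with magnetic beads after myelin removal on Percoll, and mRNA was sequenced in 39 libraries. Per the submitters' processing notes, reads were aligned with HISAT2 to GRCm38 (mm10); the counting tool and its strand setting are not given in the sources used here. The authors deposited gene counts and FPKM, in separate tables for each cohort. The deposited counts were tested, and the deposited FPKM were used only to order levels between genes.

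Groups came from the sample labels. Each pair of groups was fitted alone with edgeR 4.0.16 in R 4.3.3 (TMM, quasi-likelihood F test, Benjamini-Hochberg FDR), keeping genes above 1 CPM in at least 3 of the compared libraries. The SE is the absolute log2FC over the square root of F. Genes were called at FDR below 0.05 and absolute log2FC above 1. The interaction was fitted over the 4 groups of a cohort. Total counts ranged from 13457293 to 25906121, and floors cover counting error only. No pair of 76 within-group library pairs agreed within sampling noise (lowest chi-square per degree of freedom 4.86). Correlations used log2 CPM with a prior count of 1 and scipy 1.17.1. In data simulated from the counts, 200 genes were changed in CIH females and 200 in CIH males. Of those tested, 193 of 196 were called in CIH females (7 false calls) and 195 of 198 in CIH males (5 false calls). How recovery depends on the size of the fold was not tested, nor was recovery in the other comparisons.

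The 10 genes, the marker lists and the tests were chosen with earlier results of these data known. All 10 genes are named; from each wider list at most the 4 called genes with the largest absolute log2FC per comparison; and the 5 genes with the highest correlation with Gfap per cohort. The tests of the 10 genes were recomputed with library size scaling, with no filter, with a replicate block, by FDR alone, without each library in turn, and with edgeR's likelihood ratio test and DESeq2 1.42.0, and those of 2 groups with 1 fit over 4 groups. The correlations were recomputed with another prior count, with library size scaling, without the 2 libraries farthest from the median of Gfap, in 5XFAD libraries alone and, in females, without the library labelled 5XFAD NX 4. The result of 1 gene on the marker lists is left out and not reported here.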

Additional observations from a re-analysis of the deposited data

Results flagged for a closer look

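Of 80 sets of 1 gene in 1 group, 3 held a library far from the others by Dixon's test, where chance gives about 1 in 20. Aqp4 in the female library WT NX 3 was at 3.26 CPM, and the other 3 libraries lay between 1.72 and 1.84 CPM. Gfap in the female library WT NX 2 was at 1.54 CPM, and the other 3 lay between 0.390 and 0.569 CPM. Gja1 in the male library 5XFAD NX 1 was at 4.59 CPM, and the other 4 lay between 2.40 and 2.67 CPM. The cause was not tested.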

How the results depend on the processing

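The number of the 10 genes called in NX females, 1 as reported, was 3 under DESeq2, the likelihood ratio test and 1 fit over 4 groups, 2 without the filter and by FDR alone, and 0 to 3 leaving out 1 library. Of all genes, 869 were called there as reported, and 1197, 1180, 1330, 947 and 2013 under the first 5 of these settings in turn. In CIH males, 3 of the 10 as reported, the number was 5 under the likelihood ratio test and without the filter, and 3 to 5 leaving out 1 library. Of all genes, 2764 were called there as reported, 2958 under the likelihood ratio test and 3303 without the filter. In WT males, 1 of the 10 as reported, the number was 3 under the likelihood ratio test and without the filter, 2 by library size, 0 in 1 fit over 4 groups, and 0 to 3 leaving out 1 library. Of all genes, 376 were called there as reported. The likelihood ratio test called 512, library size scaling 423 and 1 fit over 4 groups 0. Without the filter, 5 genes were called in the male interaction, and Gfap had −1.44 (adjusted p 0.0216). Over all genes, the calls with and without the filter were 0 and 790 in the male interaction, 376 and 639 in WT males and 0 and 21 in WT females. The cause was not tested.

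Samples with the same replicate number shared only a number: 12 of 38 pairs had a correlation of deviations above 0.1 (range −0.49 to 0.35), and 6 were best with their own number. With the number as a block, 0 of the astrocyte genes followed were called in NX females (Gfap 7.19, adjusted p 0.0569). In CIH males 5 were called, with Slc1a2 (1.13, adjusted p 0.000225) and Aldoc (1.24, adjusted p 0.00186) among them. In WT males 2 were called, Aqp4 among them (1.61, adjusted p 0.0206). Gja1 in NX males turned to 0.35 and Aldh1l1 in WT males to 0.018. Of all genes, the fit with the block called 7 in NX females, 2783 in CIH males and 398 in WT males. Without the block these counts were 869, 2764 and 376. The loss of calls in NX females was not particular to the astrocyte genes.

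Small log2FC changed sign. By library size, Sox9 in CIH females was −0.0052, Gfap in WT females 0.0042, Clu in NX and CIH males −0.016 and −0.28, S100b and Aldh1l1 in WT males 0.092 and 0.086, Slc1a3 in 5XFAD males −0.013, and Aldh1l1 in the male interaction −0.027. Gfap in WT females was 0.017 in 1 fit over 4 groups. In WT males S100b and Aldh1l1 were 0.0041 and 0.00029 under DESeq2, and 0.010 and 0.0058 without the filter.

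Leaving out 1 library, Gfap in NX females ran from 7.27 to 8.06 and in WT females from −0.22 to 0.20. In CIH females Clu ran from −0.031 to 0.53, Sox9 from −0.014 to 0.46 and Gja1 from −0.63 to 0.081. In WT females Clu ran from −0.51 to 0.19 and Sox9 from −0.88 to 0.12, and Aqp4 in 5XFAD females from −0.10 to 0.38. Gja1 in NX males ran from −0.32 to 0.47 and Clu in CIH males from −0.10 to 0.25. In WT males S100b ran from −0.18 to 0.23 and Aldh1l1 from −0.42 to 0.22. In 5XFAD males Gja1 ran from −0.45 to 0.018, Slc1a3 from −0.065 to 0.17, Aldh1l1 from −0.14 to 0.34, Aldoc from −0.54 to 0.0017 and S100b from −0.68 to 0.069. In the male interaction Clu ran from −0.31 to 0.10, Slc1a3 from −0.22 to 0.0023, Aldh1l1 from −0.12 to 0.53 and S100b from −0.66 to 0.13.

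Correlations of Gfap in females were 0.436 for Aqp4 at a prior count of 0.25, and by library size 0.309 for Aqp4, −0.592 for Slc1a3, −0.036 for Gja1 and −0.023 for Sox9. Without the library labelled 5XFAD NX 4 they were 0.638 for Aqp4, 0.655 for Clu (adjusted p 0.0506 each), 0.425 for Gja1, 0.392 for Sox9, 0.149 for Aldh1l1 and −0.033 for Slc1a3. In the 9 other 5XFAD libraries alone they were 0.787 for Gja1 and −0.025 for Aldh1l1. In males S100b was 0.390 at a prior count of 0.25 and 0.535 by library size, past the limit in neither. Without the 2 farthest libraries the male values were 0.772 for Slc1a2, 0.816 for Aldoc, 0.596 for Gja1 and 0.656 for Clu. In male 5XFAD libraries alone they were 0.736 for Aqp4, 0.905 for Slc1a2, 0.986 for Aldoc, 0.734 for Aldh1l1 and 0.881 for Clu.

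Of the results that answer a comparison, 364 values under the alternatives kept their direction and side of the threshold, 28 moved, 10 turned direction, 11 passed the threshold only under the alternative and 9 no longer passed it. The reads of Gfap in WT libraries, 0 to 30 each, limit its level there.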

Other observations

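Summed without Gfap, the other 9 genes took 185 to 277 CPM in female WT NX, 169 to 228 in WT CIH, 129 to 213 in 5XFAD NX and 152 to 312 in 5XFAD CIH, which overlapped. In males the sums were 177 to 227, 181 to 278, 194 to 366 and 147 to 269 CPM in the same order, which overlapped too. Slc1a3, which was lower in 5XFAD, made up most of the sum in WT NX, with means of 155 CPM in females and 133 CPM in males. The overlap therefore does not speak to the less abundant genes. The 8 intermediate filament and partner genes summed to 315 CPM in the female library WT NX 1, the one with the highest DAM sum among WT libraries, and to at most 76.6 CPM in female WT CIH.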
